A study of Mus musculus with 16 samples.

Results

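The genes described here encode the subunits of the oxidative phosphorylation system, measured in B16-OVA tumors of mice treated with an inhibitor of MEK, an agonist antibody against CD40, both, or neither. Genes were taken by symbol. The only gene symbol of their probe set had to start with Ndufa, Ndufb, Ndufc, Ndufs, Ndufv, Uqcr, Atp5 or Cox4 to Cox8, or be Sdha, Sdhb, Sdhc or Sdhd, and the muscle isoforms Cox6a2, Cox7a1 and Cox8b were set aside. This gave 87 genes of the 18193 that have a probe set with 1 symbol. Of these, 79 encode subunits or subunit isoforms, with 34 in complex I, 4 in complex II, 8 in complex III, 16 in complex IV and 17 in complex V. The other 8 carry symbols starting with Ndufaf and encode assembly factors of complex I, which help to build the complex and are not part of it. They meet the rule by their letters and are described separately throughout. For a gene with several probe sets, the one with the highest mean over the 16 arrays was used.

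In oxidative phosphorylation, complex I takes electrons from NADH and complex II takes them from succinate. Coenzyme Q carries the electrons to complex III, cytochrome c carries them on to complex IV, and complex IV hands them to oxygen. Complexes I, III and IV pump protons out of the mitochondrial matrix, and complex V, the ATP synthase, makes ATP as the protons flow back. Most subunits are encoded in the nucleus, and a small number by mitochondrial DNA. Complex I has a matrix arm, which holds the flavin and the iron-sulfur clusters, and a membrane arm, which pumps, with many accessory subunits around a conserved core.

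B16-OVA, a melanoma line of the mouse that makes ovalbumin, was grown under the skin of C57BL/6-Ly5.1 mice that were 6 to 12 weeks old at injection. The MEKi+CD40 group received the MEK inhibitor GDC-0623 at 30 mg/kg every day for about 2 weeks and a CD40 agonist antibody (mIgG1) on treatment days 3, 5 and 7 and again 1 day before analysis. The MEKi group received GDC-0623 and a control IgG, the CD40 group received the vehicle MCT and the CD40 antibody, and the control group received vehicle and control IgG. Each group had 4 mice, tumors were taken on day 18, and RNA from each tumor went on its own Affymetrix array. Signals are log2 values normalised by the robust multichip average (RMA), so that a difference of 1 is a doubling of signal. Whole tumor pieces hold melanoma cells, stroma and infiltrating cells, and in such bulk samples fewer cells of a type and less RNA per cell cannot be told apart.

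The tumors carried the markers of their label, as 7 of 7 melanocyte genes lay above the background level of 4.94 in every group, with list means of 13.46 to 13.77. Other tissues varied within groups. A mean over 15 skeletal muscle genes exceeded that of controls by 7.20 and 4.23 in tumors 1 and 3 of the MEKi+CD40 group and by 3.00 in tumor 3 of the CD40 group, and by 0.85 or less in the other 13 tumors. MEKi+CD40 tumor 1 also had the widest gap between the 3′ and 5′ probe sets of Actb (0.91) and Gapdh (0.38), which were at most 0.44 and 0.08 elsewhere. The counts and medians of the comparisons they enter are given with and without these 3 tumors.

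Nearly all of the genes gave strong signals. Of the 87, 84 had a mean above background, and the median of the means was 12.40. The exceptions were Cox7b2, Ndufb4 and Cox6b2. The testis isoforms Cox7b2 and Cox6b2 had means of 3.31 and 4.30. The used probe set of Ndufb4 had a mean of 4.15, and other Ndufb4 probe sets carry several symbols, so this value says little about the transcript. Signals of different probe sets are not on a common scale, and levels are therefore compared only between tumors for 1 gene. Among tumors of the same group the genes varied little. The median of their pooled within-group SD was 0.096, against 0.162 over all genes. Cox5b, a zinc-binding subunit of complex IV, had the lowest SD of the 87 (0.034), and its 16 values ran from 14.13 to 14.31. Ndufa4l2 had the highest (0.675). Of the probe sets used, 4 have names ending in x_at (those of Cox5b, Ndufa12, Ndufa3 and Ndufs8), which marks probes that can also bind other transcripts.

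CD40 tumors were first set against controls, which asks what the antibody did alone. Most subunit genes lay slightly below control, and no gene passed the test. None of the 45037 probe sets had an adjusted p under 0.05 (limma, Benjamini-Hochberg; 0.0% called), so 0 of the 87 genes were called in this comparison. At an unadjusted p under 0.05, 0 genes were higher and 16 were lower in CD40 tumors, where 4.04% and 5.94% of all 18193 genes were. The difference was below 0 for 81 of the 87 genes and above 0 for 6, against 58.9% and 40.7% of all genes. Its median was −0.11, against −0.03 over all genes and −0.05 over the 2835 genes with a mean signal of 10 or more. In 19 of the 87 genes every CD40 tumor lay below every control tumor, and in 0 genes above, against 3.95% and 1.7% of all genes. Of the genes with a mean signal of 10 or more, 7.87% and 1.45% were separated in this way. At an unadjusted p under 0.05, 8.18% of those stronger genes were lower and 3.56% higher. By complex, the difference was below 0 in 33 of 34 genes of complex I, 4 of 4 of complex II, 8 of 8 of complex III, 13 of 16 of complex IV and 17 of 17 of complex V. Related lists, described below, also lay mostly below control. This held for 13 of 13 genes of the tricarboxylic acid cycle (median −0.14) and 15 of 16 of the electron carrier list (−0.10). It also held for 28 of 36 further assembly factors (−0.085) and 57 of 76 genes of the mitochondrial ribosome (−0.0825). Among 48 genes of the cytosolic ribosome 25 were below 0 (−0.0013).

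Ndufs1 encodes the largest iron-sulfur subunit of the matrix arm of complex I. Its signals were 11.85, 11.61, 11.79 and 11.75 in CD40 tumors and 12.10, 12.10, 11.97 and 11.94 in controls. The groups did not overlap, and the difference was −0.28 (SE 0.08; limma adjusted p = 0.511). Uqcrh encodes the acidic hinge protein of complex III, which binds cytochrome c1. It had signals of 12.54, 12.59, 12.75 and 12.65 in CD40 tumors and 12.79, 13.03, 12.83 and 13.03 in controls. Again the CD40 values all lay below the control values, with a difference of −0.29 (SE 0.09; limma adjusted p = 0.527). Ndufb10 and Ndufb5, both accessory subunits of the membrane arm, differed by −0.23 and −0.20, with no overlap between the groups. In complex V, the catalytic subunit gene Atp5a1 differed by −0.20 (SE 0.08), Atp5o, in the stalk that holds the catalytic head, by −0.20 and Atp5g1, a gene of the membrane ring, by −0.21, again with no overlap. The other catalytic subunit, Atp5b, differed by −0.12 (SE 0.07), and its groups overlapped. The 6 genes with a difference above 0 were Cox4i2, Cox5a, Ndufa4l2, Ndufaf3, Ndufaf6 and Ndufb4. Of these Cox5a, a subunit of complex IV, had the highest ratio of difference to error, at 0.10 (SE 0.07).

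The mean over all 87 genes lay below the control mean by 0.15, 0.13, 0.06 and 0.10 in CD40 tumors 1 to 4, while the control tumors themselves ran from −0.06 to 0.04. The CD40 tumor nearest to control was tumor 3, the one with muscle transcripts. Without it the median difference of the genes was −0.13, and 82 of 87 were below 0. Markers of infiltrating cells moved with this comparison. The summed log2 signal of 8 leukocyte genes, 8 of 8 above background in both groups, ran from 70.77 to 88.97 in CD40 tumors and from 58.44 to 74.47 in controls, and that of 8 macrophage genes, also 8 of 8 above background, from 72.35 to 89.19 in CD40 tumors and from 57.67 to 76.31 in controls. The 7 melanocyte genes had sums of 94.23 to 95.66 in CD40 tumors and 95.14 to 95.67 in controls. The part of these cells in the subunit differences was not tested.

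**Figure D1:**
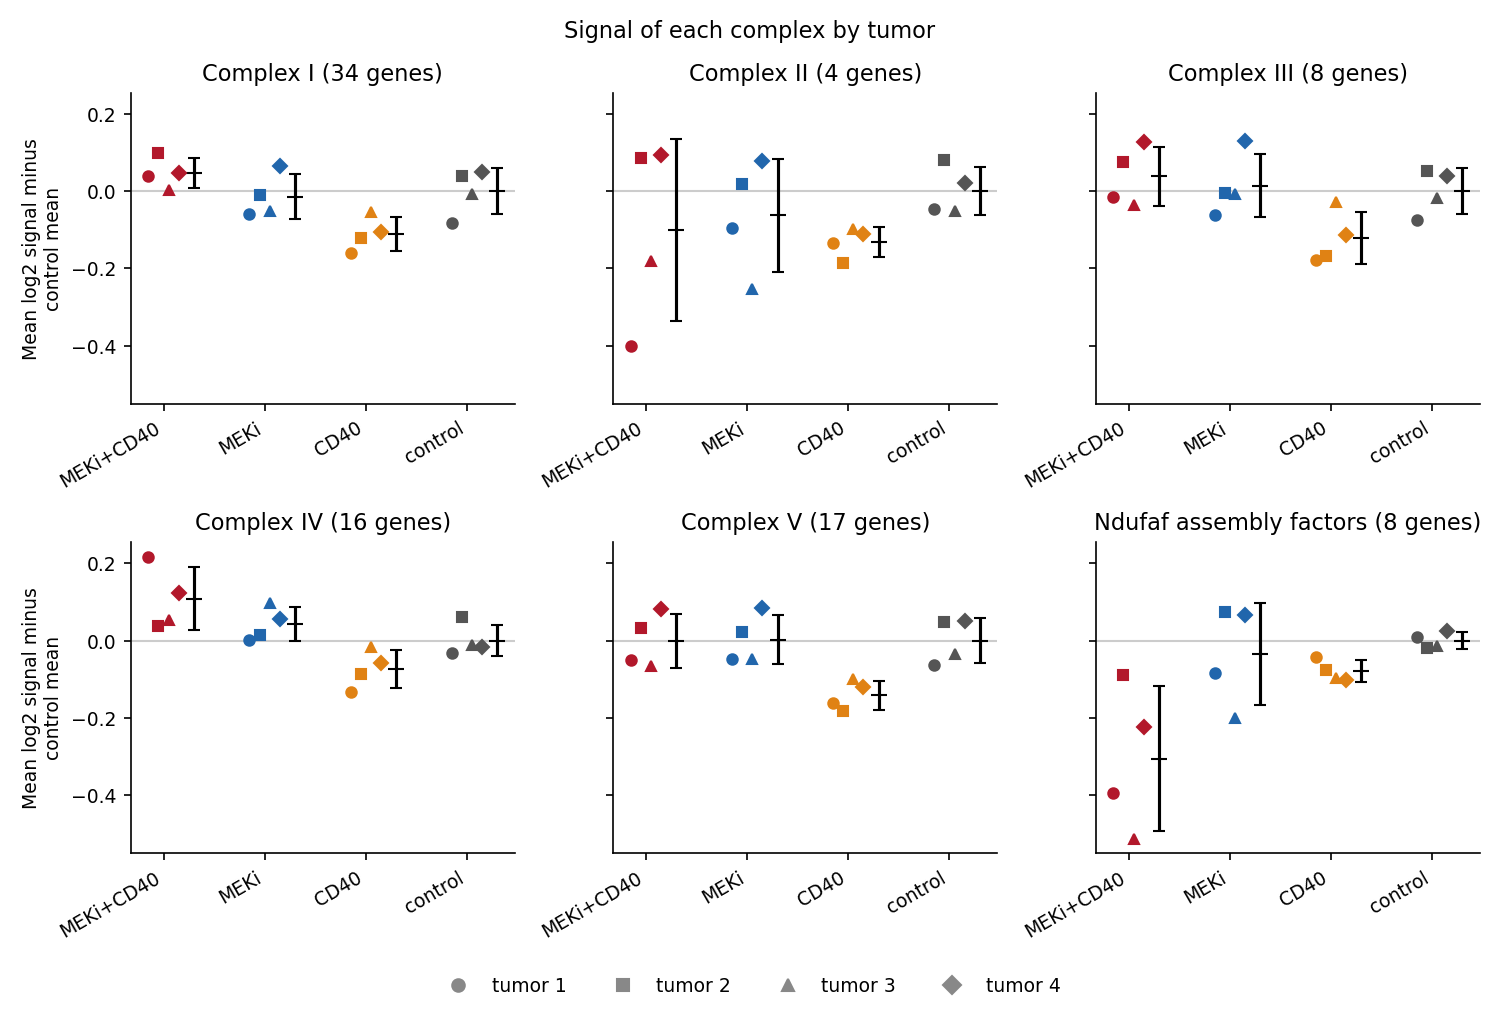
Mean log2 signal of the genes of each complex in each tumor, minus the mean of the control tumors (vertical axis), by group (horizontal axis), with 1 point per tumor, shaped by tumor number, and mean ± SD (n = 4) in black. CD40 tumors lay below 0 in all 6 panels, and the Ndufaf assembly factors lay below 0 in all 4 MEKi+CD40 tumors.

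With the inhibitor alone, in MEKi tumors against controls, the subunit genes were close to control. No probe set was called (0.0% of 45037; the smallest adjusted p over all probe sets was 0.0538), and therefore 0 of the 87 genes. The difference was above 0 for 40 of the genes and below 0 for 47, against 51.8% and 47.8% of all genes, with a median of −0.01 against 0.01 over all genes. At an unadjusted p under 0.05, 2 genes were higher and 0 lower, against 3.69% and 4.21% of all genes. Every MEKi tumor lay above every control in 2 genes, Ndufaf4 and Ndufa4l2, and below in 0, against 2.49% and 2.11% of all genes. The 2 genes at an unadjusted p under 0.05 were Ndufb6, a membrane arm subunit, and the assembly factor gene Ndufaf4. Ndufb6 had signals of 12.42, 12.56, 12.58 and 12.57 in MEKi tumors and 12.29, 12.35, 12.29 and 12.45 in controls. Its groups overlapped, and the difference was 0.19 (SE 0.07; limma adjusted p = 0.692). Ndufaf4 had 10.87, 10.88, 11.03 and 10.95 in MEKi tumors and 10.84, 10.69, 10.73 and 10.81 in controls. Here the groups did not overlap, with a difference of 0.17 (SE 0.07; limma adjusted p = 0.719). For Atp5o, another probe set of the gene gave 0.21 (limma adjusted p = 0.694) where the probe set used gave −0.02, so the direction of that gene depends on the probe set. The leukocyte sums were 43.97 to 64.53 in MEKi tumors and 58.44 to 74.47 in controls, and their part in these values was not tested.

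MEKi+CD40 tumors were compared with controls to describe the combination. The subunit genes were on balance close to control, and none of the 87 genes passed the test. Of all probe sets, 4 were called (0.00888%). The median difference of the 87 genes was 0.03, against 0.03 over all genes, and 50 genes were above 0 and 36 below, against 55.3% and 44.5% of all genes. At an unadjusted p under 0.05, 10 genes were higher, all of them subunits, and 5 were lower, all of them assembly factors, where 10.9% and 14.5% of all genes were higher and lower. The share of higher members, 11.5%, is near that of all genes, and the share of lower members, 5.75%, is below theirs. Of the genes with a mean signal of 10 or more, 13.0% were higher and 27.2% lower, and their median difference was −0.07. The 10 higher members were Ndufa1, Ndufa3, Ndufa6, Ndufa7, Ndufa13, Ndufb6 and Ndufv3 of complex I, Uqcr11 of complex III, Cox6c of complex IV and Atp5l of complex V. Their differences ran from 0.18 to 0.29. In each of these 10, every MEKi+CD40 tumor lay above every control tumor. Over the 87 genes such a separation was seen for 12 genes upward and 6 downward, against 6.93% and 10.4% of all genes. Among the core subunits the differences were smaller than their errors or close to them, at −0.02 (SE 0.07) for Ndufv1, the subunit that binds NADH, −0.08 (SE 0.15) for Ndufs1, −0.14 (SE 0.15) for Sdha, the flavoprotein of succinate dehydrogenase, −0.15 (SE 0.11) for Uqcrc1, a core protein of complex III, and −0.13 (SE 0.14) for Atp5b. MEKi+CD40 tumor 1 was the lowest of its group for Ndufs1 (11.48), Sdha (10.86), Uqcrc1 (11.70) and Atp5b (13.07). The other tumors of the group had 12.02 to 12.16, 11.33 to 11.57, 11.87 to 12.14 and 13.46 to 13.78. The control means were 12.03, 11.465, 12.09 and 13.62. Marker genes differed in this comparison too, with 15 of 15 muscle genes above control (median 2.80) and 7 of 7 fibroblast genes (median 1.22), and their part in the values was not tested. Without the muscle tumors the median of the 87 genes was 0.07 and 64 were above 0.

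When the CD40 antibody was added to the inhibitor, 1.15% of all probe sets were called (518 of 45037) and 0 of the 87 genes. The median difference of the genes between MEKi+CD40 and MEKi tumors was 0.03, against 0.01 over all genes. At an unadjusted p under 0.05, 7 genes were higher and 4 lower, against 11.6% and 13.0% of all genes, and the 4 lower genes were again assembly factors. Of the genes with a mean signal of 10 or more, 12.7% were higher and 24.7% lower, and their median difference was −0.07. The difference was above 0 for 50 of the 87 genes and below 0 for 37, against 51.1% and 48.7% of all genes. In 7 genes every MEKi+CD40 tumor lay above every MEKi tumor and in 2 below, against 7.05% and 8.99% of all genes. Ndufa6, an accessory subunit of the matrix arm with the LYR motif that binds acyl carrier protein, had signals of 11.99, 11.91, 11.94 and 11.86 in MEKi+CD40 tumors, against 11.60, 11.67, 11.55 and 11.78 in MEKi tumors. The groups did not overlap, and the difference was 0.28 (SE 0.08; limma adjusted p = 0.0902). Ndufa7, Ndufa3 and Ndufa13 differed by 0.24, 0.23 and 0.22, with no overlap. The medians by complex were 0.05 for complex I, −0.02 for complex II, 0.07 for complex III, 0.07 for complex IV and −0.02 for complex V. In this comparison 8 of 8 leukocyte genes (median 1.84), 8 of 8 macrophage genes (median 2.28) and 15 of 15 muscle genes (median 2.85) had a difference above 0, and their part in the values was not tested. Without the muscle tumors the median of the 87 genes was 0.08 and 68 were above 0.

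Adding the inhibitor to the CD40 antibody gave the only comparison in which genes of oxidative phosphorylation were called. In MEKi+CD40 tumors 5 subunit genes were higher than in CD40 tumors and 1 assembly factor gene was lower, in a comparison in which 4.74% of all probe sets were called, 2.28% as higher and 2.46% as lower. Counted over the 18193 genes, 3.15% were called higher and 3.29% lower, and over the 2835 genes with a mean signal of 10 or more 5.11% and 6.35%. The called members, 5.75% higher and 1.15% lower, were thus near the share of genes of like signal on the higher side and below it on the lower side. The 5 higher genes were Uqcr11, Ndufv3, Ndufa1, Ndufa3 and Ndufa7, and the lower gene was Ndufaf6. The difference was above 0 for 72 of the 87 genes and below 0 for 15, against 58.2% and 41.5% of all genes, and above 0 for 70 of the 79 subunits and isoforms. Its median was 0.14 over the 87 genes, against 0.04 over all genes and −0.03 over the genes with a mean signal of 10 or more. At an unadjusted p under 0.05, 30 genes were higher (34.5%) and 3 lower (3.45%), against 13.6% and 12% of all genes and 17.4% and 23.5% of the genes with a mean signal of 10 or more. Every MEKi+CD40 tumor lay above every CD40 tumor in 29 of the 87 genes and below in 2, against 9.58% and 8.2% of all genes. Of the genes with a mean signal of 10 or more, 13.0% lay above and 17.5% below in this way. This comparison and that of CD40 with control share the CD40 tumors, and their values are therefore not independent.

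Uqcr11 encodes the smallest subunit of complex III. Its signals were 12.94, 12.84, 12.83 and 12.91 in MEKi+CD40 tumors, against 12.45, 12.42, 12.57 and 12.49 in CD40 tumors. All MEKi+CD40 values lay above all CD40 values, and the means were 12.88 ± 0.05 and 12.48 ± 0.07 (SD, n = 4 each). The difference was 0.40 (SE 0.07; limma adjusted p = 0.0312), or 31.7% more signal. MEKi tumors had 12.64, 12.54, 12.84 and 12.76 and controls 12.51, 12.70, 12.57 and 12.69. Their means lay between those of the other 2 groups, with MEKi tumor 3 at the level of the combination and the lowest controls within reach of the CD40 tumors.

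Ndufv3 encodes an accessory subunit beside the NADH-binding flavoprotein of complex I. It had 13.47, 13.46, 13.47 and 13.53 in MEKi+CD40 tumors, against 13.00, 13.17, 13.14 and 13.12 in CD40 tumors. The MEKi+CD40 tumors were close to each other, with an SD of 0.03, and the groups did not overlap (difference 0.38, SE 0.07; limma adjusted p = 0.0334). In MEKi tumors Ndufv3 had 13.26, 13.16, 13.51 and 13.31, and in controls 13.12, 13.33, 13.24 and 13.16. MEKi tumor 3 thus reached the level of the combination.

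Ndufa1 and Ndufa3 encode small accessory subunits of the membrane arm of complex I that each cross the membrane. Ndufa1 had 13.46, 13.41, 13.47 and 13.46 in MEKi+CD40 tumors, against 13.06, 13.15, 13.21 and 13.16 in CD40 tumors, which did not overlap (difference 0.31, SE 0.07; limma adjusted p = 0.0437). Ndufa3 had 13.36, 13.18, 13.21 and 13.20 in MEKi+CD40 tumors, against 12.77, 12.86, 13.00 and 12.89 in CD40 tumors (difference 0.36, SE 0.08; limma adjusted p = 0.0461). The groups did not overlap either, and the highest value was that of MEKi+CD40 tumor 1. A second strong probe set of Ndufa3, whose name does not end in x_at, gave 0.40 (limma adjusted p = 0.0367).

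Ndufa7 encodes an accessory subunit of the matrix arm. It had 12.49, 12.33, 12.30 and 12.32 in MEKi+CD40 tumors, against 11.93, 12.06, 12.08 and 12.03 in CD40 tumors, with no overlap (difference 0.34, SE 0.08; limma adjusted p = 0.0474). The array holds 5 probe sets for Ndufa7. The other 4 gave differences of 0.23, 0.27, 0.26 and 0.40, with adjusted p from 0.0642 to 0.14, all in the same direction.

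**Figure D2:**
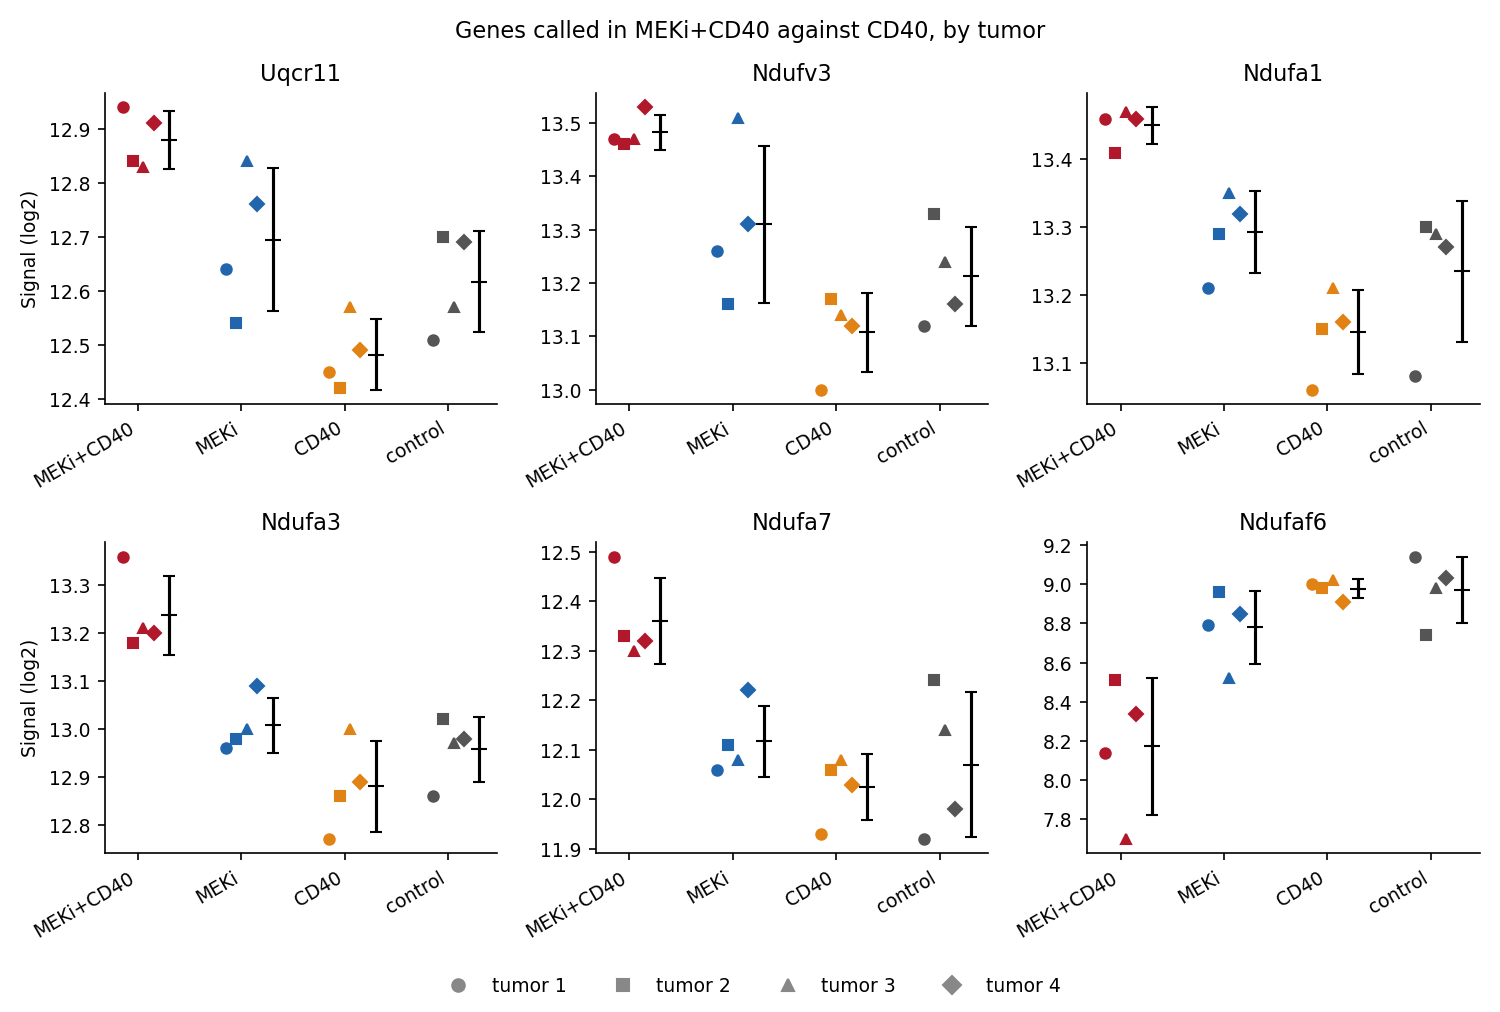
Log2 signal (vertical axis) of the 6 genes called in MEKi+CD40 against CD40 tumors, by group (horizontal axis), with 1 point per tumor, shaped by tumor number, and mean ± SD (n = 4) in black; the vertical axes do not start at 0 and differ between panels. In the first 5 panels the MEKi+CD40 tumors lie above the CD40 tumors, and for Ndufaf6 they lie below, from 7.70 to 8.51 against 8.91 to 9.02.

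Beyond the called genes, those with the next smallest p were Uqcrh, Cox6c, Ndufa6, Atp5l, Ndufa13 and Ndufb3, with adjusted p from 0.0559 to 0.0676 and differences from 0.27 to 0.34. In complex I the difference was above 0 for 32 of 34 genes, in complex III for 6 of 8, in complex IV for 14 of 16, in complex V for 15 of 17 and in complex II for 3 of 4. The medians were 0.16, 0.22, 0.20, 0.14 and 0.05 for complexes I, III, IV, V and II. The subunits that carry the redox centres or catalysis did not stand among the genes called with all tumors. Ndufv1 differed by 0.06 (SE 0.07), Ndufs1 by 0.20 (SE 0.16), Sdha by 0.03 (SE 0.15), Sdhb, the iron-sulfur subunit of complex II, by 0.08 (SE 0.07), Uqcrfs1, the Rieske iron-sulfur protein of complex III, by −0.04 (SE 0.12), Atp5a1 by 0.12 (SE 0.10) and Atp5b by −0.01 (SE 0.15). MEKi+CD40 tumor 1 was the lowest of its group for Ndufs1 (11.48), Sdha (10.86), Uqcrfs1 (11.25) and Atp5b (13.07). The other tumors of the group had 12.02 to 12.16, 11.33 to 11.57, 11.46 to 11.74 and 13.46 to 13.78. Ndufs1 was among the 7 genes called when MEKi+CD40 tumor 1 was left out. For Cox4i1, a large nuclear-encoded subunit of complex IV, the difference was 0.21 (SE 0.08; limma adjusted p = 0.156), with no overlap between the groups.

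The calls rested on small differences between few tumors. Without the 3 tumors with muscle transcripts, 1526 of 45037 probe sets were called. Among the 87 genes, 0 subunit genes were then called and Ndufaf6 alone passed, while the median of the 87 genes was 0.19 and 79 were above 0. The differences of the 5 subunit genes were then 0.42 (Uqcr11), 0.40 (Ndufv3), 0.31 (Ndufa1), 0.35 (Ndufa3) and 0.32 (Ndufa7), with limma adjusted p from 0.0658 to 0.135, and 2 MEKi+CD40 tumors stood against 3 CD40 tumors. That of Ndufaf6 was −0.54 (limma adjusted p = 0.0461). Leaving out 1 tumor at a time, the number of called genes was 0 without CD40 tumor 1, 2 or 4 or MEKi+CD40 tumor 3 or 4, 1 without CD40 tumor 3 (Uqcr11), 3 without MEKi+CD40 tumor 2 and 7 without MEKi+CD40 tumor 1. Over all probe sets the number called ran from 0 without CD40 tumor 2 to 3508 without MEKi+CD40 tumor 1. Markers of other cells also differed between these groups. The summed signal of the 15 muscle genes was 69.73 to 178.47 in MEKi+CD40 tumors (15 genes above background) and 70.43 to 115.55 in CD40 tumors (10 above), and that of the 8 leukocyte genes was 56.28 to 83.50 in MEKi+CD40 tumors and 70.77 to 88.97 in CD40 tumors (8 above in both). The part of leukocytes in the differences was not tested.

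**Figure D3:**
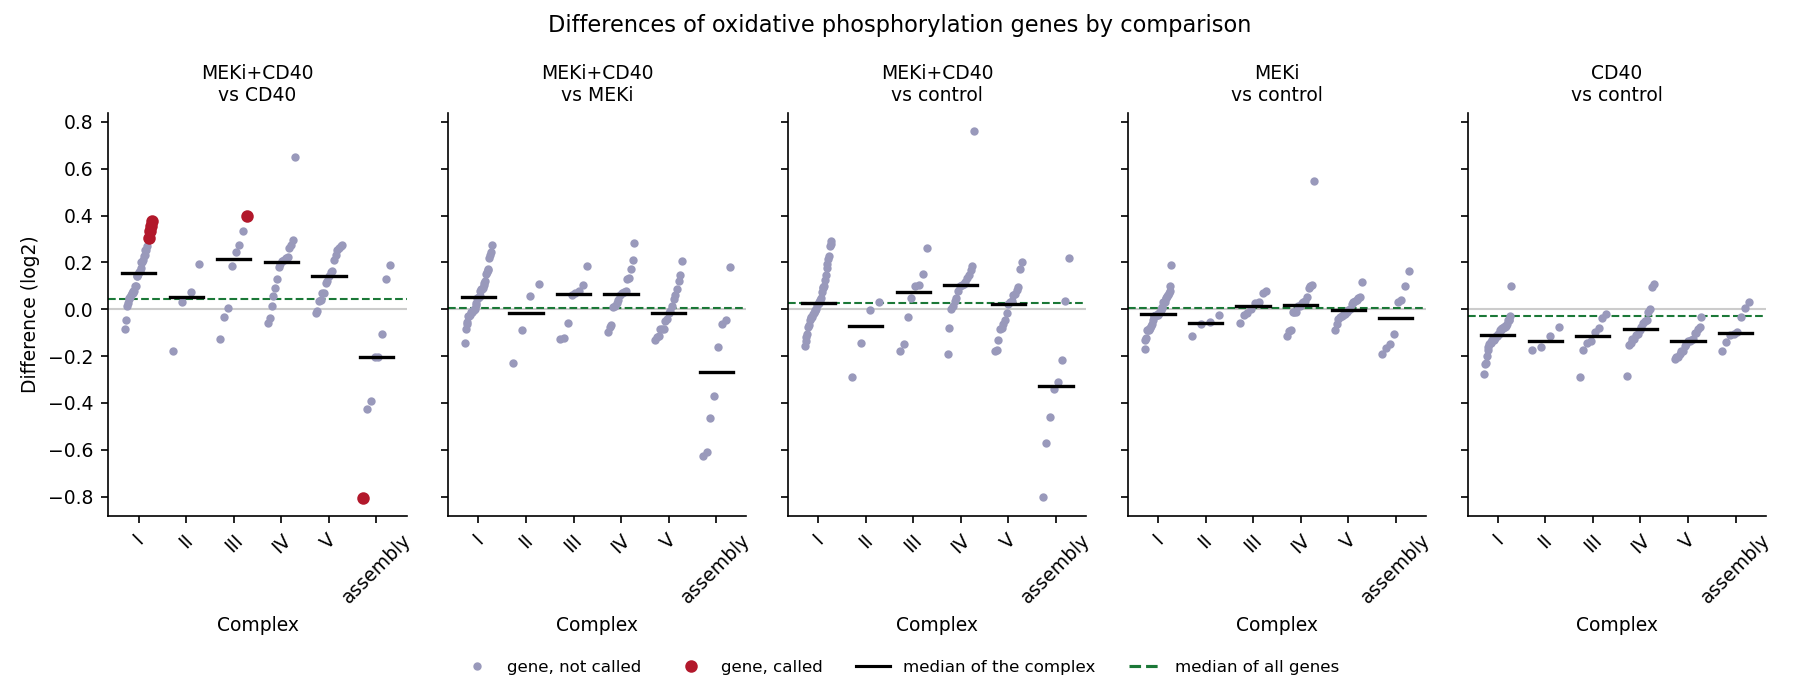
Difference in log2 signal (vertical axis) of each of the 87 genes in 5 comparisons (panels), by complex or as Ndufaf assembly factors (horizontal axis), with called genes in red, the median of each complex as a black line and the median of all 18193 genes as a dashed green line. Only the panel of MEKi+CD40 against CD40 holds called genes, 5 higher and 1 lower, and most points of CD40 against control lie below 0.

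The interaction asks whether the combination differs from the sum of the single treatments, and is the difference of MEKi+CD40 from MEKi tumors minus the difference of CD40 from control tumors. No probe set was called (0.0% of 45037), nor any of the 87 genes. The interaction was above 0 for 74 of the 87 genes and below 0 for 13, against 55.1% and 44.8% of all genes, with a median of 0.16 against 0.03. At an unadjusted p under 0.05, 18 genes were above 0 and 2 below, against 9.22% and 8.35% of all genes. Of the genes with a mean signal of 10 or more, 11.7% were above 0 and 16.9% below at that threshold. The smallest p among the subunits belonged to Ndufb3, a membrane arm subunit. Its signals were 11.73, 11.87, 11.78 and 11.80 in MEKi+CD40 tumors, 11.58, 11.61, 11.54 and 11.78 in MEKi tumors, 11.51, 11.48, 11.62 and 11.49 in CD40 tumors and 11.57, 11.88, 11.78 and 11.80 in controls. Both single treatments had a lower mean than control and the combination did not, giving an interaction of 0.40 (SE 0.11; limma adjusted p = 0.112). Ndufa6 followed with 0.38 (SE 0.10; limma adjusted p = 0.114). Atp5j, coupling factor 6 in the peripheral stalk of the ATP synthase, had 0.30 (SE 0.10; limma adjusted p = 0.155). Below 0, the smallest p belonged to the assembly factor genes Ndufaf4, with −0.59 (SE 0.17; limma adjusted p = 0.118), and Ndufaf6, with −0.61 (SE 0.21; limma adjusted p = 0.174). Ndufaf4 was called when MEKi+CD40 tumor 2 was left out, the only such call among the 87 genes with 1 tumor left out. Without the muscle tumors the median was 0.21, and 78 of the 87 genes were above 0.

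Promoters of some oxidative phosphorylation genes are known to bind the factors NRF1, GABP (an ETS family factor) and YY1. The promoter sequences of the 87 genes were therefore searched for the core letters of each factor. RefSeq start sites on build GRCm38.p6 gave a window of 250 bases before to 50 after the start for 72 of the 87 genes. The NRF1 core motif was found on either strand in 17 of 72 genes (23.6%), against 7.17% of 17491 protein-coding genes. CCGGAAG, an ETS core, was in 19 (26.4%, against 12.9%), and AAGATGGC, a YY1 core, in 10 (13.9%, against 3.57%). At least 1 of the 3 was in 40 of 72 (55.6%, against 21.0%). A match describes the letters only, and the protein-coding genes were not matched to the 87 genes by signal or base composition. The sequences shown are the 120 bases before the start. Among genes with a single window, the gene with the smallest p in MEKi+CD40 against CD40 tumors was taken for the ETS core and for the NRF1 core among those with a match in this stretch, and Ndufv3 as the gene with the smallest p among those with none of the 3 in the window. No such gene had a YY1 match in this stretch. Ndufs5 was not called (difference 0.26, SE 0.07; limma adjusted p = 0.0910). Capitals mark the match. Uqcr11 lies at chr10:80406822-80406941 on the minus strand, Ndufs5, an accessory subunit of complex I, at chr4:123718187-123718306 on the minus strand, and Ndufv3 at chr17:31519995-31520114 on the plus strand.
Uqcr11, ETS core: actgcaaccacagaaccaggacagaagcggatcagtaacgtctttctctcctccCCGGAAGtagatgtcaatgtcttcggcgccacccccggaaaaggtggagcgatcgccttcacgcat
Ndufs5, NRF1 core: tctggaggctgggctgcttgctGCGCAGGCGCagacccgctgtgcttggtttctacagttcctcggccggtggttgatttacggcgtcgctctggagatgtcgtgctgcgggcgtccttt
Ndufv3, no match: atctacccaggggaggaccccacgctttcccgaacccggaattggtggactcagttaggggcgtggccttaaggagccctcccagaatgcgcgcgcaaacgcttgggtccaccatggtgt
Of the 5 higher genes, Uqcr11 had an ETS match and Ndufa3 a YY1 match in the window, and Ndufv3, Ndufa1 and Ndufa7 had none of the 3.

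The genes of the factors themselves were measured in a list of 12 regulators of mitochondrial biogenesis. In MEKi+CD40 against CD40 tumors 3 of the 12 were called (25%, against 6.44% of all genes), all lower, and the median of the list was −0.31. Nrf1 had 6.82, 7.36, 7.00 and 7.31 in MEKi+CD40 tumors, against 7.79, 7.90, 7.66 and 7.80 in CD40 tumors (difference −0.67, SE 0.13; limma adjusted p = 0.0357). Gabpb1, the partner subunit of GABP, had 6.86, 6.98, 6.12 and 6.74 in MEKi+CD40 tumors, against 7.41, 7.76, 7.60 and 7.44 in CD40 tumors (difference −0.88, SE 0.19; limma adjusted p = 0.0405). Neither gene overlapped between the groups. Tfb1m, a methyltransferase of mitochondrial ribosomal RNA, was the third (−0.43, SE 0.09; limma adjusted p = 0.0414). Gabpa, the DNA-binding subunit of GABP, differed by 0.02 (SE 0.12), Yy1 by −0.22 (SE 0.09; limma adjusted p = 0.187), the coactivator gene Ppargc1a by −0.20 (SE 0.21) and Tfam, which packages mitochondrial DNA, by −0.46 (SE 0.13; limma adjusted p = 0.0809). MEKi+CD40 tumors 1 and 3, which held muscle transcripts, were the lowest of the group for Nrf1. Without the muscle tumors the differences were −0.49 for Nrf1 (limma adjusted p = 0.0489), −0.68 for Gabpb1 (0.0569) and −0.48 for Tfb1m (0.0883), so that only Nrf1 was still called, and the median of the list was −0.31.

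Most of the 8 Ndufaf assembly factor genes went the other way from most subunits in MEKi+CD40 tumors. Against CD40 tumors, Ndufaf6, which acts early in building the matrix arm, was the 1 called. It had 8.14, 8.51, 7.70 and 8.34 in MEKi+CD40 tumors, against 9.0, 8.98, 9.02 and 8.91 in CD40 tumors, with no overlap (difference −0.81, SE 0.16; limma adjusted p = 0.0360), and the signal fell by 42.8%. In MEKi tumors it had 8.79, 8.96, 8.52 and 8.85, and in controls 9.14, 8.74, 8.98 and 9.03. Its difference from control was −0.80 (SE 0.17; limma adjusted p = 0.0547) and from MEKi tumors −0.61 (SE 0.18; limma adjusted p = 0.102).

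Ndufaf2, a late-stage assembly factor related to the subunit Ndufa12, had 8.15, 8.18, 7.73 and 7.95 in MEKi+CD40 tumors, against 8.60, 8.42, 8.59 and 8.69 in controls. The groups did not overlap, and the difference was −0.57 (SE 0.12; limma adjusted p = 0.0526). Ndufaf4 had 10.21, 10.62, 9.91 and 10.49 in MEKi+CD40 tumors, below all 4 MEKi tumors given above (difference −0.63, SE 0.15; limma adjusted p = 0.0660). Ndufaf7 and Ndufaf5, both enzymes that modify subunits during assembly, differed from control by −0.34 (SE 0.12) and −0.31 (SE 0.12). Ndufaf3 and Ndufaf8 were not lower, at 0.22 (SE 0.16) and 0.04 (SE 0.09) against control. The median of the 8 genes was −0.33 against control, −0.27 against MEKi and −0.20 against CD40 tumors. For 36 further assembly factor genes, described below, these medians were −0.16, −0.095 and 0.0038. Against CD40 tumors 18 of the 36 were above 0 and 18 below. The mean of the 8 genes lay below the control mean by 0.40, 0.09, 0.51 and 0.22 in MEKi+CD40 tumors 1 to 4, so that the 2 tumors with muscle transcripts were the lowest. With the muscle tumors left out the medians of the 8 genes were −0.19 against control, −0.13 against MEKi and −0.06 against CD40 tumors. The part of muscle in these values was not tested beyond this.

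Other mitochondrial lists are given for comparison. In MEKi+CD40 against CD40 tumors, 6.44% of all genes and 11.5% of the genes with a mean signal of 10 or more were called. Of 36 further assembly factor genes, 2 were called higher and 1 lower (8.33%) in that comparison, with 18 above 0 and 18 below. Sdhaf4, which assists the maturation of Sdha, was higher by 0.42 (SE 0.09; limma adjusted p = 0.0406), and Cox20, a chaperone of a complex IV core subunit, by 0.47 (SE 0.10; limma adjusted p = 0.0377). Cox18, which inserts the same subunit into the membrane, was lower by 0.42 (difference −0.42, SE 0.08; limma adjusted p = 0.0350). Of 16 genes of electron carriers and coenzyme Q synthesis, 2 were called higher there (12.5%). The median of the list was −0.17, with 11 of 16 genes below 0 and 6 of them lower at an unadjusted p under 0.05. The 2 called were Coq9, which binds coenzyme Q intermediates (0.46, SE 0.08; limma adjusted p = 0.0318), and Coq10a (0.56, SE 0.13; limma adjusted p = 0.0455). In MEKi+CD40 against MEKi tumors, Pdss2, which makes the side chain of coenzyme Q, was lower (−0.48, SE 0.08; limma adjusted p = 0.0496). None of the 13 measured genes of the tricarboxylic acid cycle was called in any comparison. Of 76 genes of the mitochondrial ribosome, 1 was called higher and 5 lower (7.89%) in MEKi+CD40 against CD40 tumors. This share was near that of all genes and below that of the genes with a mean signal of 10 or more. The median of the 76 genes was −0.25, against 0.16 for the 79 subunits and isoforms and −0.08 for 48 genes of the cytosolic ribosome. Against control these 3 medians were −0.31, 0.03 and −0.09. The difference between the medians of the lists was not tested. Without the muscle tumors, in MEKi+CD40 against CD40 tumors, 0 genes of the mitochondrial ribosome were called higher and 1 lower, and the median was −0.17, against 0.20 for the subunits and isoforms and −0.08 for the cytosolic ribosome. Of the further assembly factors only Cox20 was then called (limma adjusted p = 0.0468), and of the electron carrier list only Coq9 (limma adjusted p = 0.0425), with a list median of −0.06. Pdss2 was no longer called against MEKi tumors (−0.42, limma adjusted p = 0.142).

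**Figure D4:**
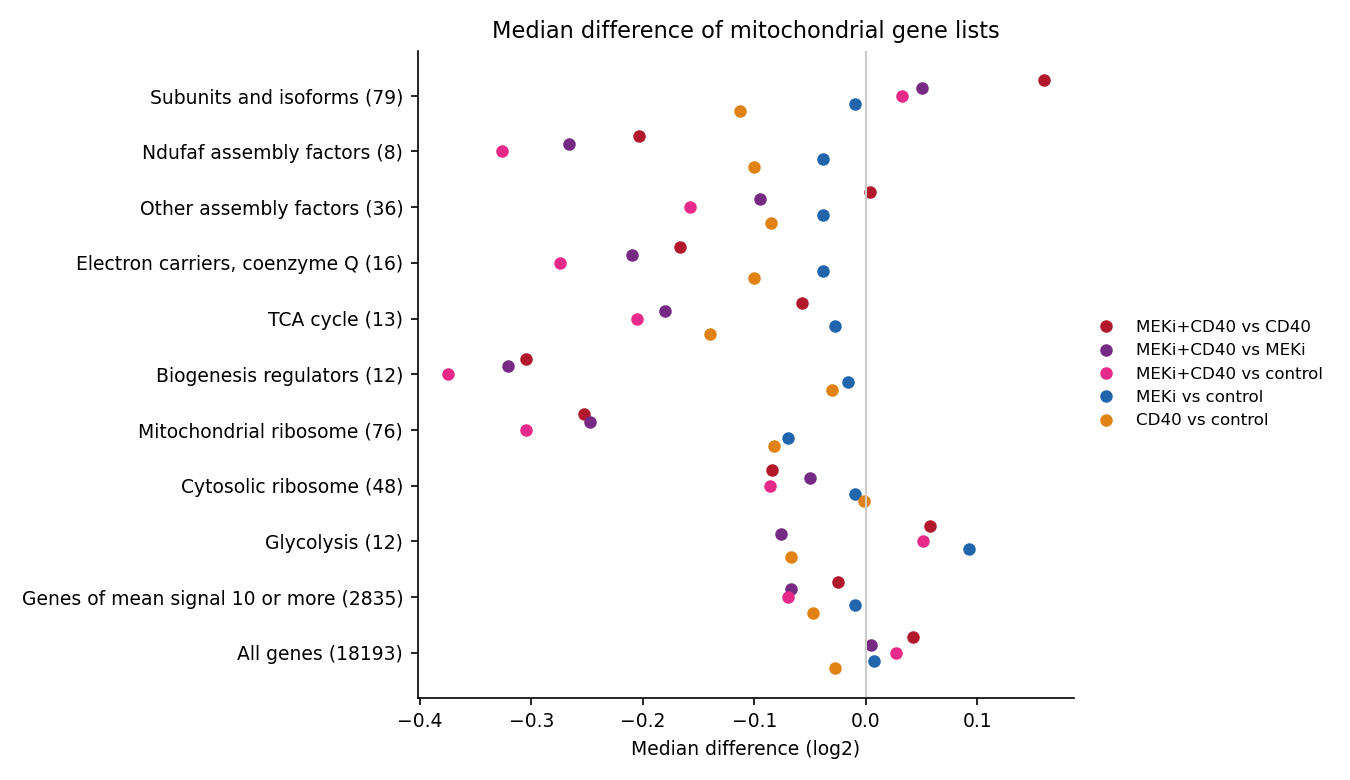
Median difference in log2 signal (horizontal axis) of the genes of mitochondrial and reference lists (rows, with the number of genes) in 5 comparisons (colours). The subunits and isoforms had medians of 0.16 in MEKi+CD40 against CD40 and −0.11 in CD40 against control, while the mitochondrial ribosome and the biogenesis regulators had medians of −0.25 and −0.31 in MEKi+CD40 against CD40.

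Several subunits exist as isoforms made in different tissues or conditions. Ndufa4l2, a relative of Ndufa4 that is induced by hypoxia-inducible factors, had 8.80, 6.62, 6.89 and 6.80 in MEKi+CD40 tumors, 6.67, 6.77, 8.17 and 6.65 in MEKi tumors, 6.41, 6.51, 7.32 and 6.27 in CD40 tumors and 6.59, 6.61, 6.50 and 6.37 in controls. In each treated group 1 tumor stood above the others. The differences from control were 0.76 (SE 0.44) in MEKi+CD40, 0.55 (SE 0.31) in MEKi and 0.11 (SE 0.20) in CD40 tumors, with limma adjusted p of 0.363, 0.767 and 0.917. The 3 tumors were also those with the highest mean of 7 fibroblast genes in their group, at 3.83, 2.97 and 2.61 above the control mean in MEKi+CD40 tumor 1, MEKi tumor 3 and CD40 tumor 3. In that order, their leukocyte means (10.44, 8.07 and 11.12) and macrophage means (10.87, 8.48 and 11.15) were likewise the highest of their groups. For the muscle and endothelial lists, MEKi tumor 3 was instead the lowest of its group. The fibroblast list, 7 of 7 above background in all groups, had summed signals of 55.17 to 87.10 in MEKi+CD40, 55.92 to 81.11 in MEKi and 54.85 to 78.59 in CD40 tumors, against 57.41 to 62.09 in controls. The part of fibroblasts, leukocytes or macrophages in the Ndufa4l2 signal was not tested. Ndufa4 itself, the ubiquitous form in complex IV, differed from control by −0.19 (SE 0.09), −0.09 (SE 0.09) and −0.15 (SE 0.07) in MEKi+CD40, MEKi and CD40 tumors.

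The hypoxia-responsive isoform Cox4i2 ran from 6.34 to 6.77 over the 16 tumors and differed from control by at most 0.09 in any group. Cox7a2l, a relative of Cox7a2, had 11.76, 11.95, 11.97 and 11.97 in MEKi+CD40 tumors, against 11.61, 11.67, 11.63 and 11.70 in CD40 tumors. These did not overlap, with a difference of 0.26 (SE 0.08; limma adjusted p = 0.0910), and the subunit gene Cox7a2 differed by 0.18 (SE 0.07). The 3 genes for the ring subunit of complex V, which encode the same mature protein, differed by 0.04 (Atp5g1), −0.02 (Atp5g2) and 0.07 (Atp5g3) in the same comparison.

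The muscle isoforms set aside by the rule were present as well. Cox7a1 had 8.67, 8.34, 7.97 and 9.05 in MEKi+CD40 tumors, against 6.69, 5.38, 7.35 and 6.59 in CD40 tumors. The groups did not overlap, and Cox7a1 was called (difference 2.00, SE 0.40; limma adjusted p = 0.0364). MEKi tumors had 7.11, 8.00, 8.15 and 8.58 and controls 7.40, 8.07, 7.48 and 8.27, and the highest of all was MEKi+CD40 tumor 4, whose muscle score was 0.02. Cox6a2 had 10.12, 6.33, 7.70 and 6.55 in MEKi+CD40 tumors and 6.38 to 6.64 in controls, with the 2 high values in the tumors with muscle transcripts. Cox8b had 9.24, 7.07, 7.25 and 6.90 in MEKi+CD40 tumors, against 5.78, 5.22, 5.70 and 5.86 in CD40 tumors (difference 1.98, SE 0.48; limma adjusted p = 0.0570). Without the muscle tumors the differences were 2.48 for Cox7a1 and 1.36 for Cox8b, with limma adjusted p of 0.0351 and 0.0317.

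**Figure D5:**
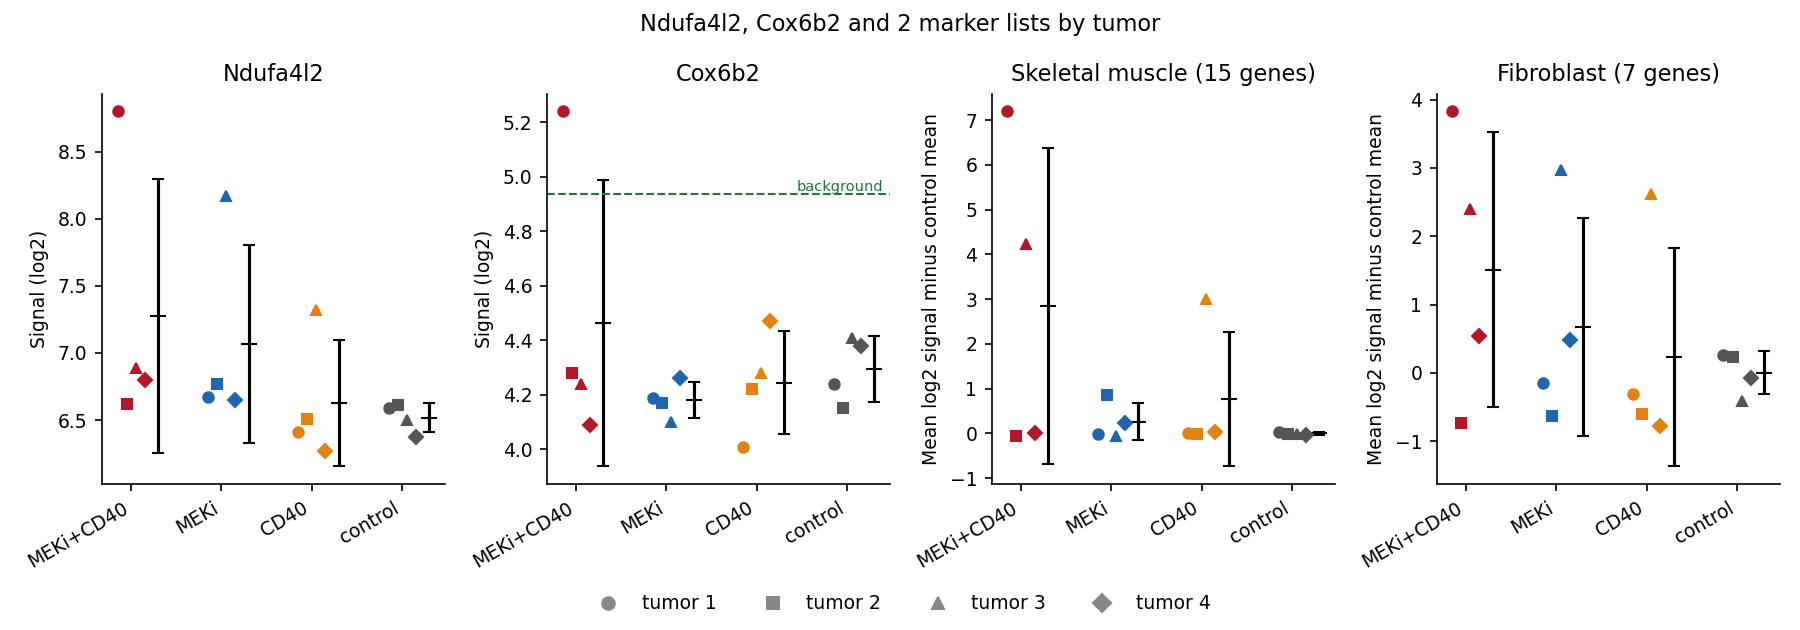
Log2 signal of Ndufa4l2 and Cox6b2 (left panels) and mean log2 signal of 15 skeletal muscle and 7 fibroblast genes minus the control mean (right panels) on the vertical axes, by group (horizontal axis), with 1 point per tumor, shaped by tumor number, and mean ± SD (n = 4) in black; the vertical axes of the left panels do not start at 0. Ndufa4l2 reached 8.80 in MEKi+CD40 tumor 1, 8.17 in MEKi tumor 3 and 7.32 in CD40 tumor 3, and Cox6b2 passed the background of 4.94 only in MEKi+CD40 tumor 1, at 5.24.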

How the data were processed

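RNA from 16 tumors (200 ng each) was measured on Affymetrix mouse arrays, 1 per tumor. The deposited values are log2 signals that the authors made by RMA (version not given in the sources used here), and they have 2 decimals. RMA normalises all arrays to a common distribution, so a shift shared by all genes would not be seen. Of 45101 probe sets, 64 array controls were left out. The platform annotation gave 34945 probe sets 1 symbol, 932 several and 9160 none.

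Pairs of groups were compared on their 8 arrays with limma 3.58.1 (lmFit and eBayes) in R 4.3.3, and the interaction on all 16 arrays. P-values were adjusted by Benjamini-Hochberg over 45037 probe sets, and a gene was called at an adjusted p under 0.05. The fit was also run on simulated data with independent normal noise, where the estimated size of planted changes of a doubling or more was checked. That check set no bound for smaller changes, and the simulation held no correlation between genes and no admixed tissue. Background was the 95th percentile of the means of 44 olfactory receptor probe sets. The precision is limited by 4 tumors per group, and the median SE of a difference was 0.0767 to 0.0858 over the 87 genes between groups and 0.109 for the interaction. Summaries were written in Python 3.11.15 (pandas 2.3.3, numpy 2.4.6) and plots drawn by matplotlib 3.10.9. Promoters were searched on both strands.

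The genes and lists were chosen with earlier results of these data known. Named were the called genes, up to 4 genes per direction of smallest p where fewer than 4 were called, the strongest signal of each complex, fixed core subunits and isoform pairs. Genes of other lists were named where called, and Gabpa, Yy1, Ppargc1a and Tfam, like the promoters shown and further genes at an unadjusted p under 0.05, were named after their values were seen. Alternatives were other fits, normalisations, filters and probe set choices, the replicate number as a block, the muscle tumors left out or the muscle score as a covariate, and each tumor left out in turn.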

Additional observations from a re-analysis of the deposited data

Results flagged for a closer look

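In 20 of 212 groups of 4 tumors, taken over the named genes, 1 tumor lay far from the other 3 by Dixon's criterion, where chance gives about 1 in 20. Values are log2 signals.

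In MEKi+CD40 tumor 1, Ndufa4l2 had 8.80 (6.62 to 6.89 in the other 3 tumors of the group), Ndufa3 13.36 (13.18 to 13.21), Ndufa7 12.49 (12.30 to 12.33), Cox7a2l 11.76 (11.95 to 11.97) and Cox6b2 5.24 (4.09 to 4.28). This tumor also had the highest muscle and fibroblast signals and the widest 3′ to 5′ gap, and their part was not tested. Ndufv3 had 13.53 in MEKi+CD40 tumor 4 (13.46 to 13.47 in the others), and Ndufa1 had 13.41 in MEKi+CD40 tumor 2 (13.46 to 13.47).

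Among MEKi tumors, Ndufa4l2 had 8.17 in tumor 3 (6.65 to 6.77 in the others) and Ndufb6 had 12.42 in tumor 1 (12.56 to 12.58). Tumor 4 stood apart for Ndufa13 with 12.87 (12.75 to 12.76), Cox4i1 with 13.57 (13.41 to 13.42) and Cox7a2 with 13.87 (13.71 to 13.73).

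Among CD40 tumors, tumor 2 was low for Atp5pb with 12.83 (13.01 to 13.02 in the others), Sdha with 11.18 (11.32 to 11.34) and Ndufa4 with 13.30 (13.36 to 13.37). In tumor 3, Ndufaf2 had 8.17 (8.46 to 8.48) and Uqcrfs1 11.72 (11.50 to 11.53).

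Among controls, tumor 4 was high for Atp5pb with 13.14 (12.94 to 12.97 in the others) and Atp5g1 with 12.13 (11.98 to 12), and tumor 1 was low for Ndufa1 with 13.08 (13.27 to 13.30).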

How the results depend on the processing

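The directions were more stable than the calls. In MEKi+CD40 against CD40 tumors, 2133 probe sets and 6 of the 87 genes were called. One fit of all 16 arrays gave 5309 and 24, array weights 4395 and 18, and the muscle score as a covariate 4622 probe sets and 16 genes. Averaging a gene's probe sets gave 1204 of the 18193 genes and 11 of the 87. With 1 probe set per gene the counts were 1579 of the 18193 and 12 of the 87. A trended robust fit gave 2041 probe sets and 11 genes, and leaving out the muscle tumors 1526 probe sets and 1 gene. Leaving out 1 tumor gave 0 to 3508 probe sets and 0 to 7 genes.

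In MEKi+CD40 against control tumors (4 probe sets and 0 genes), one fit of all arrays gave 4904 and 8, a filter on low signal 2042 and 2, 1 probe set per gene 1243 and 2, the mean of probe sets 678 and 2, array weights 3101 and 2, the muscle covariate 1236 and 1, and the trended robust fit 723 probe sets. Cyclic loess, median centring and leaving out the muscle tumors gave 0 probe sets, and leaving out 1 tumor 0 to 2327 probe sets and 0 to 2 genes. In MEKi+CD40 against MEKi tumors (518 probe sets and 0 genes), the same settings gave 4699 and 6 for all arrays, 1623 probe sets for the filter, 853 for 1 probe set per gene, 2450 for array weights, 1401 and 1 gene for the covariate, and 0 probe sets for cyclic loess, median centring and without the muscle tumors. Leaving out 1 tumor gave 0 to 1454 probe sets and 0 to 1 genes. Cyclic loess moved the median difference of the 87 genes to 0.094 against control and 0.0908 against MEKi tumors.

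In CD40 against control tumors (0 probe sets), the trended robust fit called 4 and array weights 2, and leaving out 1 tumor 0 to 1. In MEKi against control tumors (0), 1 probe set per gene, cyclic loess and array weights called 2 each, and the mean of probe sets and the covariate 1 each. For the interaction (0), array weights called 755 and the covariate 1, leaving out 1 tumor gave 0 to 560 probe sets and 0 to 1 genes, and without the muscle tumors the median was 0.2142. With the replicate number as a block, 0 probe sets were called in MEKi+CD40 against control, MEKi or CD40 tumors, and 0 of the 87 genes against CD40 tumors. The correlation of the deviations of tumors with the same number ran from −0.57 to 0.46. Tumors with different numbers were not compared in this way, so whether the number marks something shared was not tested.

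Ndufa4l2 in CD40 against control tumors turned to −0.0272 with array weights, −0.0785 with the covariate and −0.1208 without the muscle tumors or CD40 tumor 3, and Ndufaf3 to −0.0275 and −0.0308 without control tumor 1 or 4. With 1 tumor left out at a time they reached at most 0.2292 (Ndufa4l2) and 0.1592 (Ndufaf3). The causes were not tested. For the named genes, 478 values kept direction and side of the threshold under the other settings, 25 gained and 16 lost the call and 3 reversed. These counts include the settings under which the direction could not change. With a tumor left out 406 values kept direction and side, 6 gained the call, 41 lost it and 3 reversed.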

Other observations

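Only 1 probe set of a gene in mitochondrial DNA carried a name in the annotation used here. ND5, a pumping subunit of the membrane arm of complex I, had 13.49, 14.08, 14.14 and 14.03 in MEKi+CD40 tumors, 13.70, 13.78, 13.66 and 13.95 in MEKi tumors, 13.73, 13.60, 13.62 and 13.70 in CD40 tumors and 13.71, 13.81, 13.71 and 13.62 in controls. In 3 of 4 MEKi+CD40 tumors the signal was above every other tumor, and in tumor 1 it was the lowest of all 16.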
